A study of Mus musculus with 19 samples.

Results

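The late step of reprogramming, day 10 against day 2, was followed in wild-type (WT) pre-iPSCs through 6 lists of 5-hydroxymethylcytosine (5hmC) peaks. The members are the 3 WT libraries of day 10 (D10, replicates A, B and C) and the 3 WT libraries of day 2 (D2, replicates A, B and C), chosen by their titles, out of 19 samples in the series. On chromosomes 1 to 19 they hold 616291 of the 1594845 peaks that the 18 deposited lists hold there. Pre-iPSCs are reprogramming intermediates that arose from mouse embryonic fibroblasts (MEF) and stopped short of pluripotency. Every WT culture had the same label of treatment at D10 and at D2, ascorbic acid (50 µg/mL) with 2i (CHIR-99021, which inhibits the kinase GSK3, and PD-0325901, which inhibits the kinase MEK), in medium with serum and leukaemia inhibitory factor that was renewed every 2 days. The cultures were split on day 4, between the harvests compared. The remaining samples were WT libraries of day 0 (D0), KO1 and KO2 libraries of the same days (what was knocked out is not in the labels), 3 libraries of the mouse embryonic stem cell (mESC) line V6.5, taken at 0, 12 and 72 hours, and an input library without a list. Ascorbic acid at 50 µg/mL is also listed for the D0, KO and mESC libraries. What the mESC hours count from is not given here.

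5hmC is made when TET enzymes oxidise 5-methylcytosine, and it is both a mark of its own and an intermediate in the removal of DNA methylation. Ascorbic acid is a cofactor that keeps TET enzymes active, and 2i holds mouse cells in a naive pluripotent state. As DNA is copied, 5hmC is diluted unless it is made again, so its level at a site reflects both making and loss. The assay attached a biotin to the glucose that T4 beta-glucosyltransferase adds to 5hmC, and biotinylated fragments were captured and sequenced. In such a bulk sample, fewer cells that carry 5hmC at a site and less 5hmC per cell cannot be told apart. The peaks could not be set beside marker genes, because no gene annotation of the files' build (mm9) was used here. The mESC lists were used in place of markers. As given below, they differed with time in the regions they held. Likeness to a single mESC list thus does not stand for pluripotency as such.

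D10 lists were shorter than D2 lists. The D10 libraries A, B and C held 86096, 77245 and 54997 peaks, against 160426, 131742 and 105785 peaks in the D2 libraries. The longest D10 list was shorter than the shortest D2 list, and replicates A, B and C came in the same order on both days. The mean was 72779 ± 16023 peaks at D10 and 132651 ± 27332 at D2 (SD, n = 3 each), a difference of -0.87 in log2 peak number (two-sided exact permutation test, p = 0.1, which is the smallest that 3 against 3 samples allow). Taken letter by letter, the log2 difference was -0.90 for A, -0.77 for B and -0.94 for C.

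The difference was larger for the sequence under the peaks than for their number. Peaks covered 31.6, 28.3 and 17.6 Mb in D10 libraries A, B and C, against 64.5, 57.0 and 43.5 Mb in the D2 libraries (log2 difference -1.12, exact permutation p = 0.1). It was larger still among peaks with a high confidence value. Peaks with a deposited -log10 q of at least 10 numbered 14706, 5579 and 4369 at D10, against 73893, 59945 and 31874 at D2, a log2 difference of -2.87 (exact permutation p = 0.1). Only 10.7 ± 5.50% of a D10 list reached that q, against 40.6 ± 9.04% of a D2 list (SD, n = 3 each).

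Sequencing depth, recovered relative to the shared input from the step that 1 read makes in the deposited fold values, was 1.37, 1.64 and 1.03 in D10 libraries A, B and C, against 1.61, 1.35 and 1.24 in D2 libraries. The deepest of the 6 was D10 B, and it held fewer peaks than D2 C, the shallowest D2 library. D10 C was the shallowest of the 6 and had the shortest list and the narrowest peaks. The part that depth had in the differences between libraries and between days was not tested. Absolute depth is unknown.

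Peaks were also narrower at D10 when lists of equal length were set against each other. Among the 54997 strongest peaks of each library (the length of the shortest list, ranked by the authors' -log10 p), the median width was 343, 334 and 278 bp in D10 libraries, against 453, 460 and 411 bp in D2 libraries. All 3 D10 medians lay under all 3 D2 medians, and the mean difference was -123 bp (exact permutation p = 0.1). Equal length is not equal strength. The weakest of these peaks had a -log10 p of 8.29, 7.36 and 4.03 in D10 libraries A, B and C. In D2 libraries A, B and C it was 13.6, 12.7 and 10.1. The D10 lists thus reached weaker peaks, here and wherever the strongest peaks are used below. The part of this in the differences was not tested. Peaks of at least 1000 bp made up 0.974 ± 0.540% of the strongest peaks at D10 and 6.59 ± 1.76% at D2 (SD, n = 3 each, exact permutation p = 0.1). The widest single peak went the other way, with 5093, 5112 and 4949 bp in the D10 lists against 4552, 4551 and 4555 bp in the D2 lists.

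**Figure D1:**
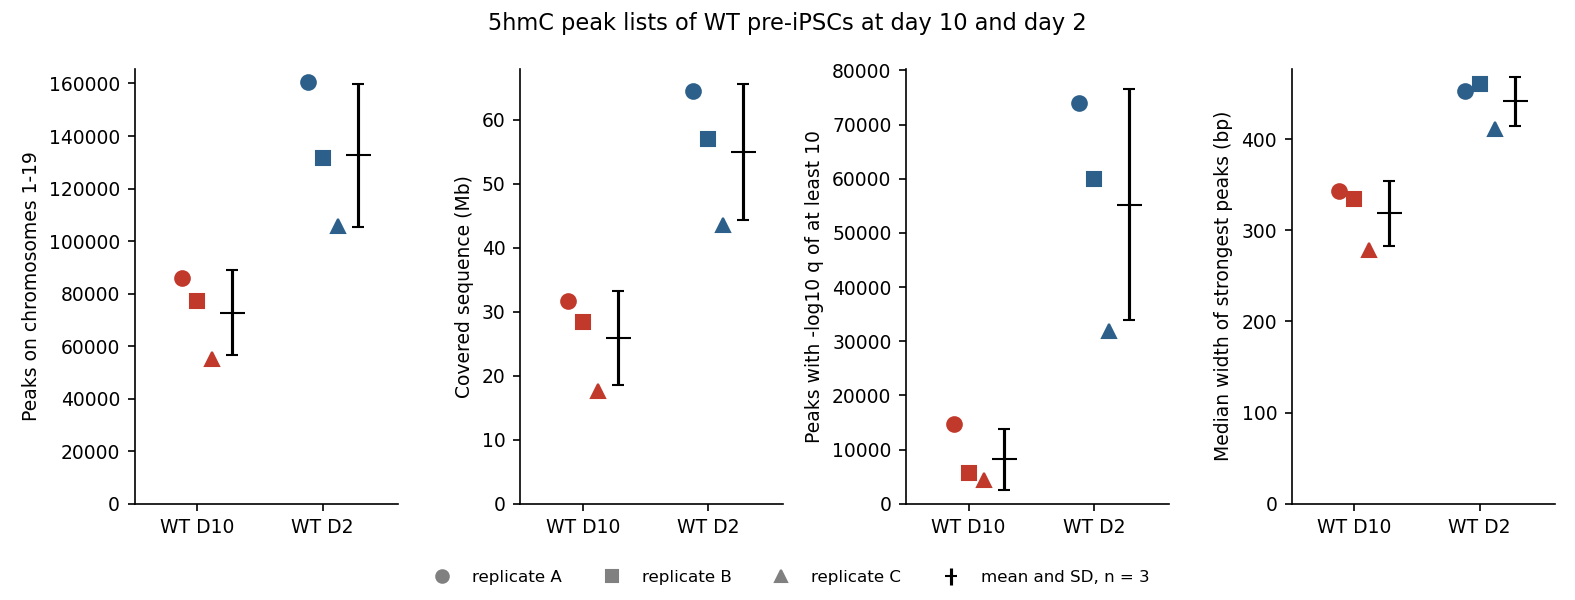
Number of peaks on chromosomes 1 to 19, megabases they cover, number of peaks with a deposited -log10 q of at least 10, and median width in bp of the 54997 strongest peaks, for each WT D10 (red) and WT D2 (blue) library. Points are libraries, and the black bars are the mean and SD of 3. In each panel all D10 points lie below all D2 points, and replicate C is the lowest of its day.

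The libraries of a day shared more with each other than with the other day. Over the strongest peaks, the bp shared by a pair of libraries, as a percent of the bp in either, averaged 30.8% within D10 (27.6 to 34.8% over 3 pairs), 47.5% within D2 (45.5 to 48.6% over 3 pairs) and 10.9% between days (8.35 to 13.6% over 9 pairs). No pair between days reached the lowest pair within a day. Overlap between days was 28.2 points lower than within days on average (exact permutation of the 6 labels, p = 0.1). The D10 libraries were less alike than the D2 libraries, with no D10 pair as high as the lowest D2 pair.

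Merging the peaks of the 6 lists gave 246629 regions, which fell into a few large classes. A peak in all 3 D10 lists and in no D2 list was found at 9939 regions, called gained below. A peak in all 3 D2 lists and in no D10 list was found at 42274 regions, called lost. A peak in all 6 lists was found at 11455 regions, called kept. These classes are counts without a test, and a region without a called peak can still carry 5hmC below the caller's threshold (p of 0.0001 per the run names).

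Of the 28222 regions that all 3 D10 lists held, 35.2% were gained, 40.6% were kept and 24.2% had a peak in 1 or 2 D2 lists. Of the 75980 regions that all 3 D2 lists held, 55.6% were lost, 15.1% were kept and 29.3% had a peak in 1 or 2 D10 lists. Gained and kept regions were sensitive to D10 C, the shortest list: without it, gained regions numbered 18886 and kept regions 18262. With the lists cut to equal length, the excess of lost over gained regions was smaller, with 11144 gained, 15592 lost and 4868 kept regions.

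**Figure D2:**
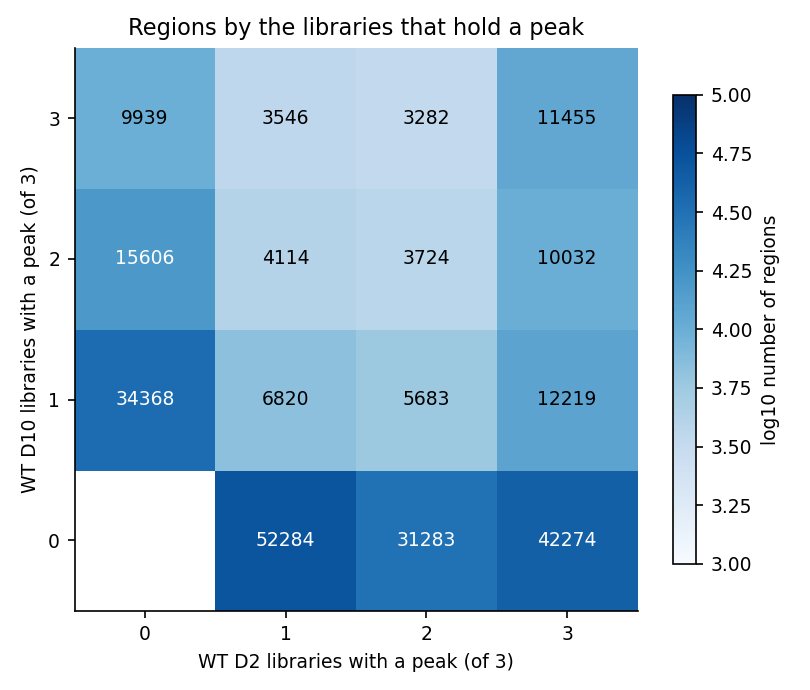
Regions merged from the 6 lists, by the number of D10 libraries (vertical axis) and D2 libraries (horizontal axis) that hold a peak. Each cell gives the number of regions, and the shade is its log10. The corners are the 9939 gained regions (upper left), the 11455 kept regions (upper right) and the 42274 lost regions (lower right).

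Kept regions merge the peaks of 6 lists, and gained and lost regions those of 3, so widths of the classes are not on 1 footing. The median width was 472 bp for gained, 497 bp for lost and 752 bp for kept regions, and 3.47% of gained, 7.17% of lost and 29.0% of kept regions were at least 1000 bp wide. Within a list, the median peak width at D10 was 341 ± 34.9 bp in gained and 380 ± 50.9 bp in kept regions, and at D2 it was 380 ± 21.8 bp in lost and 480 ± 35.3 bp in kept regions (SD, n = 3 each). Gained regions covered 5.24 Mb, lost regions 24.3 Mb and kept regions 10.1 Mb. Gained and lost regions were spread among the kept ones: the median distance to the nearest kept region was 39.8 kb for gained and 29.2 kb for lost regions. About equal shares of both classes, 24.5% of gained and 27.2% of lost regions, lay within 10 kb of a kept region.

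Even in kept regions the peaks covered less sequence at D10. The mean covered length of a kept region was 542, 527 and 414 bp in D10 libraries A, B and C, against 692, 666 and 595 bp in the D2 libraries. The groups did not overlap, with 494 ± 70.2 bp at D10 and 651 ± 50.5 bp at D2 (SD, n = 3 each, difference -157 bp, exact permutation p = 0.1). Region by region, coverage in all 3 D10 libraries lay under all 3 D2 libraries at 4139 kept regions (36.1%), and above them at 741 (6.47%). As D10 lists covered less in all, kept regions held a larger share of the covered sequence, 19.6 to 27.0% of a D10 library and 12.3 to 15.6% of a D2 library.

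Summits within kept regions lay close together on both days. In the 7910 kept regions with a single peak in each list, the median distance between the summits of a pair of libraries averaged 56.3 bp within D10 (51 to 60 bp), 46.0 bp within D2 (42 to 48 bp) and 61.8 bp between days (53 to 70 bp). Distances between days and within D10 overlapped. The mean was 10.6 bp longer between days than within days (exact permutation p = 0.1), which is small beside the median width of a D10 peak in a kept region, 380 ± 50.9 bp (SD, n = 3).

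The longest kept regions went in both directions. The longest, at chr15:76002373-76009312 (6940 bp), had 5950, 6425 and 6278 bp under D10 peaks, against 2877, 2075 and 2068 bp under D2 peaks. At chr4:141027258-141034012 (6755 bp) the days overlapped, with 5372, 5977 and 4691 bp at D10 and 5026, 4236 and 4951 bp at D2. The region at chr2:179923847-179929889 was again more covered at D10, with 4970, 4783 and 3986 bp against 3526, 2493 and 2767 bp at D2.

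The other two of the 5 longest kept regions were less covered at D10. At chr10:79436927-79442633, D10 peaks covered 2515, 3163 and 2285 bp, against 4373, 4997 and 4149 bp under D2 peaks. At chr4:148295620-148300707 they covered 1904, 1171 and 574 bp at D10, against 4898, 4787 and 4113 bp at D2. Of these 5 regions, the 3 longest had a peak in the mESC list of 72 hours and the other two had none.

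The strength of a peak separated those found again on the other day from the rest only in part. Peaks of each list were split into deciles by the authors' -log10 p. Of all D10 peaks, 56.9 ± 7.90% had a peak in a given other D10 list and 42.4 ± 1.56% in a given D2 list (SD over 3 libraries). For the strongest decile of D10 the shares were 87.0 ± 4.01% in another D10 list and 58.4 ± 3.42% in a D2 list. In that decile, 40.2 ± 1.75% of the peaks lay in kept regions and 19.9 ± 3.89% in gained regions. Of all 86096, 77245 and 54997 peaks of D10 libraries A, B and C, 13002, 12874 and 12840 lay in kept regions. Gained regions held 10223, 10217 and 10291.

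Of all D2 peaks, 23.2 ± 1.11% had a peak in a given D10 list and 72.8 ± 11.0% in a given other D2 list. The D2 lists searched were longer than the D10 lists, and with lists of equal length 25.0% of D10 peaks were found in a D2 list and 24.3% of D2 peaks in a D10 list. Over all deposited peaks, the shares for the strongest decile of the D2 lists were 40.7 ± 0.0571% in a D10 list and 99.2 ± 0.559% in another D2 list. In the weakest decile they were 17.5 ± 1.42% in a D10 list and 48.3 ± 16.8% in another D2 list.

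Nearly all D2 peaks of the strongest decile were thus found in another D2 list, and fewer than 50% in a given D10 list. In that decile, 39.7 ± 0.557% of the peaks lay in lost regions and 24.4 ± 0.274% in kept regions (SD, n = 3). Of all 160426, 131742 and 105785 peaks of D2 libraries A, B and C, 44371, 43703 and 44113 lay in lost regions. Kept regions held 13164, 12697 and 12949. Against the whole list, the decile was richer in kept regions in every D2 library. It was richer in lost regions in A and B only. Wider peaks meet an overlap of 1 bp more easily, and the shares differed by width too. The 11134 D2 peaks of 1000 bp or more but under 2000 bp were found in 48.3 ± 1.69% of cases in a D10 list and 99.7 ± 0.303% in another D2 list. D2 peaks under 300 bp were found in 15.1 ± 1.47% of cases in a D10 list and 52.2 ± 15.8% in another D2 list.

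**Figure D3:**
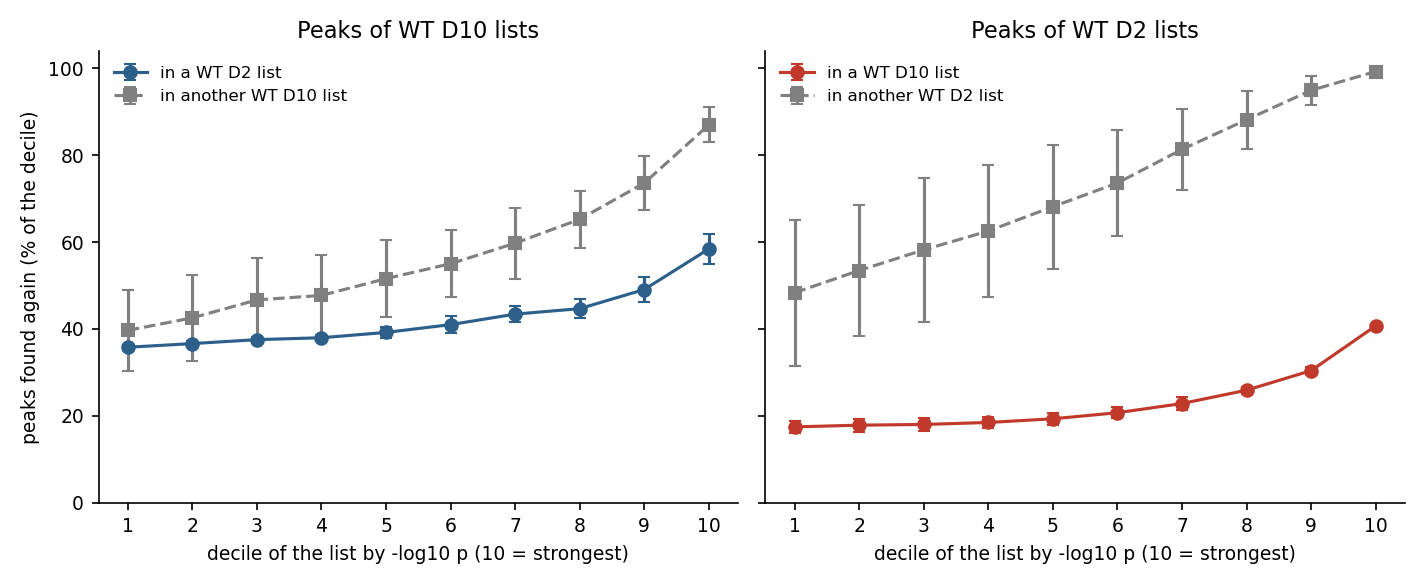
Percent of the peaks of a list that have a peak in another list, by decile of the list by the authors' -log10 p (10 is the strongest), for WT D10 peaks (left) and WT D2 peaks (right). Coloured points show lists of the other day and grey points the other lists of the same day, as mean and SD over 3 libraries. In the strongest D2 decile the share was 40.7% in D10 lists and 99.2% in other D2 lists.

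The libraries outside the comparison placed gained and lost regions differently. These libraries took no part in defining the classes. The mESC lists are short (30603, 33496 and 23876 peaks at 0, 12 and 72 hours), so shares in them are low for every class. According to a label, the mESC libraries went without a peak call, yet each has a list. The lists were used as found, and how they were made is unclear. At D0, 97.0% of gained regions had a peak in none of the 3 lists, against 32.2% of lost and 33.9% of kept regions. A peak in all 3 D0 lists was found at 0.252% of gained, 29.2% of lost and 28.2% of kept regions. Lost regions thus included both regions held since D0 and regions that the D0 lists did not hold. The shortest D0 list, of replicate C, is also the one whose run name carries no input.

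The share of gained regions found in the mESC lists was higher at each later time, and that of lost regions lower. At 0, 12 and 72 hours, 5.65%, 23.0% and 33.9% of gained regions had a peak in the mESC list. For lost regions the shares were 12.5%, 5.19% and 0.452% at the same times. Kept regions were intermediate at 72 hours, with 23.2%, 37.1% and 17.9%. At 72 hours the 95% Wilson intervals, which cover counting error only, were 32.9 to 34.8% for gained, 0.392 to 0.520% for lost and 17.2 to 18.7% for kept regions. The mESC had a single library at each time, so these shares have no replicate error.

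The KO lists of D10 held most of the lost regions. They were also longer (111808 peaks in KO1 and 111075 in KO2) than the WT lists of D10 (86096, 77245 and 54997 peaks). The part of list length in these shares was not tested. Of the lost regions, 76.8% had a peak in the KO1 list of D10 and 52.6% in the KO2 list of D10, while 84.1% and 61.8% had one in the KO1 and KO2 lists of D2. Of the gained regions, 2.01% had a peak in the KO1 list and 15.9% in the KO2 list of D10. Kept regions had one in 80.9% (KO1) and 88.0% (KO2) of cases.

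KO1 and KO2 differed most over the lost regions by their state at D0. Among lost regions with a peak in all 3 WT D0 lists, 93.7% had a peak in KO1 at D10 and 54.7% in KO2 at D10. Among lost regions in no D0 list the shares were close, 55.0% in KO1 and 50.6% in KO2. KO1 and KO2 had 1 library each at D10, with lists of like length (111808 and 111075 peaks), and the difference between them has no replicate check.

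**Figure D4:**
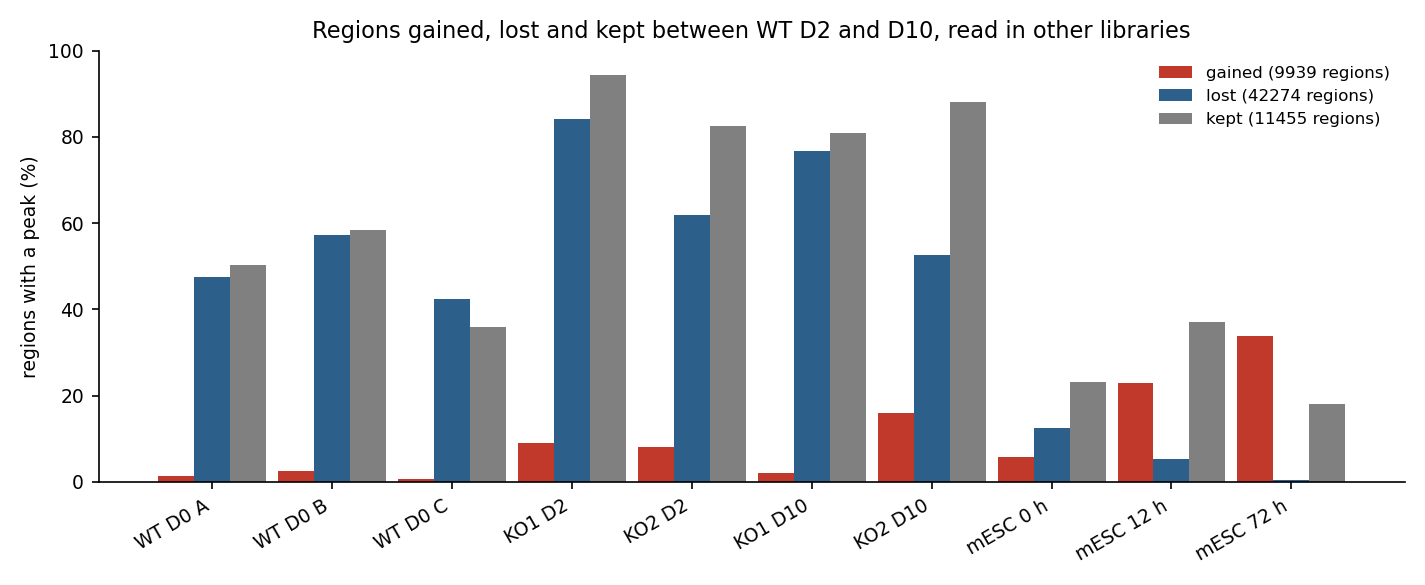
Percent of gained (red), lost (blue) and kept (grey) regions with a peak in each library that took no part in defining them: WT at D0, KO1 and KO2 at D2 and D10, and mESC at 0, 12 and 72 hours. Each bar is 1 library. Lost regions reached 76.8% in KO1 at D10 and 0.452% in mESC at 72 hours, and gained regions 33.9% in mESC at 72 hours.

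The longest gained and lost regions showed the same contrast. The longest gained region, at chr6:142345231-142348950 (3720 bp), had 3203, 3716 and 3404 bp under D10 peaks and no D2 or D0 peak, and the mESC lists of 12 and 72 hours covered 1822 and 1276 bp of it. At chr1:189176873-189179737 (2865 bp) the D10 lists covered 2797, 2476 and 2515 bp, the D2 lists none, and the mESC list of 72 hours 2427 bp. All of the 5 longest gained regions had a peak in the mESC lists of 12 and of 72 hours and none in a D0 list, and 3 of them had none in either KO list of D10.

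The longest lost region, at chr18:73848860-73853469 (4610 bp), had no D10 peak, against 4429, 4551 and 4555 bp under D2 peaks. It was covered nearly end to end in each D2 library, although no D0 list held it. KO1 and KO2 peaks covered 4019 and 3873 bp of it at D10. The next in length, at chr11:18774164-18777183 (3020 bp), had no D10 peak against 2970, 2746 and 2676 bp at D2, and 2730 and 2271 bp in KO1 and KO2 at D10. Each of the 5 longest lost regions had a peak in both KO lists of D10 and none in the mESC list of 72 hours.

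To test the redistribution across the genome, windows of 10 kb were compared by the bp under the strongest peaks of each library, so that lists of equal length were compared and a change is relative to the rest of the library. Of 15563 windows, 3084 (19.8%) were higher and 4245 (27.3%) lower at D10 (limma on log2(covered bp + 200), Benjamini-Hochberg adjusted p under 0.05), so 47.1% of windows were called. The median window changed by -0.27 on this log2 scale, and the median of the called windows was 2.27 for rises and -2.15 for falls. The labels do not say whether replicates were separate cultures, so these p-values measure only the spread between samples, which may be technical.

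Called windows were then compared by bp under all deposited peaks without scaling, which is not an absolute scale, as absolute depth is unknown. The D10 lists were shorter than the D2 lists, so windows tended to be lower at D10 in this comparison. Falls were nearly bound to hold, so their holding is no separate check of them. Rises held in part, against this tendency. Under all deposited peaks without scaling, the median window changed by -1.23 on the log2 scale, 4196 of the 4245 falls were still called lower and 1118 of the 3084 rises were still called higher. Over all deposited peaks, the 3 D10 libraries lay above the 3 D2 libraries in 1639 of the rises (53.1%), and below them in 4233 of the falls (99.7%). Over all windows tested, this was so in 11.2% (above) and 58.9% (below). Leaving out WT D10 B left 1983 windows higher, and leaving out WT D2 A, B or C left 2760, 2555 or 2639 windows lower.

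Most windows that rose held a D2 peak already, though less often than other windows. A peak in all 3 D2 lists was found in 2152 of the 3084 rises (69.8%), and in none of them in 257 (8.33%). Of the 4245 falls, 1470 (34.6%) still had a peak in all 3 D10 lists and 707 (16.7%) in none. On average, a D2 list had a peak in 81.7% of the rises, 100% of the falls and 99.8% of windows not called. A D10 list had one in 100% of the rises, 60.3% of the falls and 96.1% of windows not called. Such a peak can lie anywhere in the 10 kb. Over the rises, the mean covered length per window was 1456 ± 251 bp at D10 and 742 ± 216 bp at D2 under all deposited peaks. Over the falls it was 316 ± 133 bp at D10 and 2397 ± 247 bp at D2 (SD, n = 3 each). Rises and falls were called from these same 6 libraries. A window nearly empty on one day entered the test only through the other day. The contrast between days in these shares and lengths thus follows largely from the calling and is no separate check of it.

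A window of 10 kb can hold a D0 peak at another place than its D10 or D2 peaks. A peak in all 3 D0 lists was found in 89.6% of the falls, against 33.6% of the rises and 71.0% of the windows not called. A peak in no D0 list was found in 32.0% of the rises and 0.754% of the falls, whereas 32.2% of the lost regions, which are narrower than a window, had none. In the mESC list of 72 hours, 61.2% of the rises, 7.26% of the falls and 29.3% of windows not called had a peak. In the KO1 and KO2 lists of D10, 99.8% and 97.9% of the falls had a peak, as had 97.6% and 97.0% of windows not called.

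The windows named next were ranked by log2 change in the fit above, among windows whose days did not overlap. Values for single windows, and for the runs and bins below, are bp under all deposited peaks of a library. The log2 changes come from the scaled strongest peaks, so they can differ from what these bp would give. Where a day held little or nothing, the log2 change depends on the pseudocount, so its size and the ranks are those of 200 bp. The first rise by rank, at chr15:77590001-77600000, had 4049, 5397 and 3658 bp at D10, against 374, 0 and 241 bp at D2 (log2 change 4.81, SE 0.29, limma adjusted p = 5.11e-06). Its log2 change was 6.77 with a pseudocount of 50 bp and 2.96 with 800 bp. The second, at chr5:115180001-115190000, had 4823, 5411 and 3812 bp at D10, against 2376, 899 and 1020 bp at D2 (4.64). Under the strongest peaks, D2 libraries A, B and C held 0, 0 and 109 bp there. Under all deposited peaks without scaling, its log2 change was 1.68 (limma adjusted p = 0.0275). The window at chr11:120670001-120680000 had the most bp under peaks at D10 of the 10 named rises, with 6356, 7267 and 5068 bp, against 1352, 1239 and 386 bp at D2 (4.51). At chr10:121040001-121050000, which the mESC lists of 0, 12 and 72 hours covered by 1792, 2600 and 1734 bp, there were 4825, 4772 and 3363 bp at D10, against 367, 268 and 22 bp at D2 (4.40).

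Adjoining windows on chromosome 2 were among the 10 named rises. At chr2:76540001-76550000 there were 4056, 4097 and 2668 bp at D10, against 245, 0 and 0 bp at D2 (4.46). At chr2:76550001-76560000 there were 5412, 4888 and 2079 bp at D10, against 346, 340 and 395 bp at D2 (4.41). The second longest gained region, chr2:76547241-76550888, lies across their border. All 10 named rises had a peak in the mESC lists of 12 and 72 hours, as had 68.2% and 61.2% of all rises.

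The first fall by rank, at chr13:53280001-53290000, had no D10 peak in any list, against 5442, 5959 and 5207 bp at D2 (log2 change -4.56, SE 0.45, limma adjusted p = 4.76e-05). Its log2 change was -6.51 with a pseudocount of 50 bp and -2.73 with 800 bp. At chr19:53770001-53780000 no D10 list had a peak, against 4428, 4359 and 4745 bp at D2 (-4.28). At chr11:107210001-107220000 no D10 list had one, against 5099, 4991 and 4018 bp at D2 (-4.26). No D10 library held a peak in any of these windows.

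The fall at chr18:56870001-56880000 left 266, 0 and 0 bp at D10, against 5410, 5520 and 4748 bp at D2 (-4.24). At chr13:114390001-114400000 there was no D10 peak, against 4565, 4478 and 3827 bp at D2 (-4.21). There D0 A and B already held 5003 and 5140 bp, while D0 C held 641 bp. In the 10 named falls both KO lists of D10 had peaks, between 1746 and 5647 bp in KO1 and between 1293 and 3118 bp in KO2, and the mESC list of 72 hours had none. Nearly all windows shared the KO peaks: 99.8% and 97.9% of all falls and 97.6% and 97.0% of windows not called. In the mESC list of 72 hours, 7.26% of all falls had a peak.

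**Figure D5:**
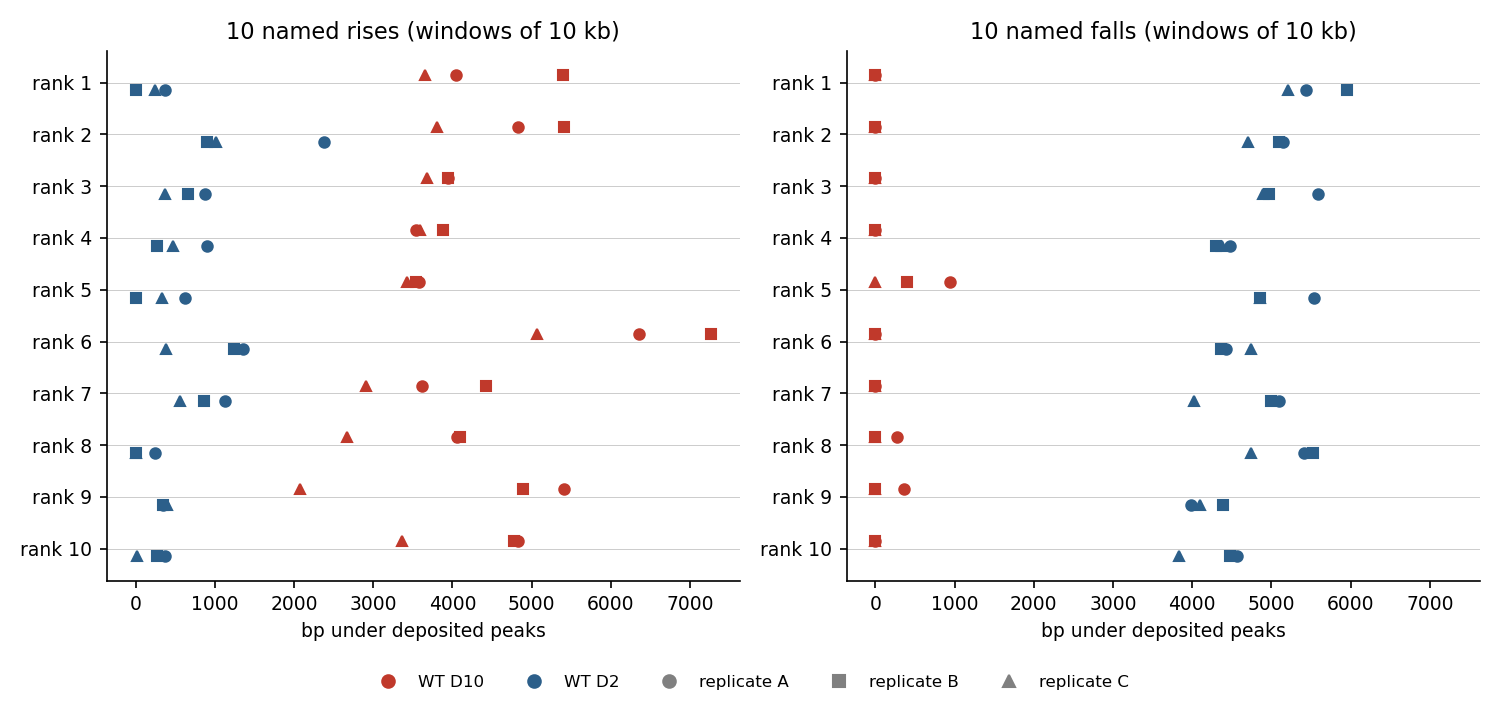
Base pairs under all deposited peaks in the 10 windows of 10 kb named for their rise (left) or fall (right) at D10 against D2, in order of log2 change, with red for WT D10 and blue for WT D2 libraries. Each symbol is 1 library. The windows were chosen so that the 3 D10 and the 3 D2 values do not overlap, and 7 of the 10 falls have 0 bp in all D10 libraries.

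Changes ran over neighbouring windows in places. Of the rises, 32.4% lay in runs of 2 or more adjoining windows that all rose, and of the falls 31.8%. Where the next window was tested, rises were followed by a rise 588 times, a fall 129 times and a window not called 566 times. Falls were followed by a fall 778 times, a rise 134 times and a window not called 819 times. Windows not called were followed by a rise 560 times, a fall 850 times and another such window 1912 times. A peak across a border adds to both windows. Runs of 4 windows or more numbered 43 for rises and 33 for falls.

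The longest run of rises, at chr1:34270001-34360000 (9 windows), had 27036, 30978 and 22038 bp at D10, against 10077, 8542 and 6467 bp at D2. A run of 6 windows at chr2:76540001-76600000, which takes in the adjoining windows above, had 19515, 19696 and 12027 bp at D10, against 1002, 879 and 923 bp at D2. The mESC list of 72 hours covered 12315 bp of it and KO1 and KO2 at D10 covered 993 and 233 bp. Every D10 library thus held far more of it than any D2 library, and the KO libraries of D10 held no more of it than D2 A did.

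The run of 6 rises at chr12:111850001-111910000 had 22530, 23940 and 19503 bp at D10, against 5132, 3996 and 2967 bp at D2. The longest run of falls, at chr8:126060001-126150000 (9 windows), had 11656, 2482 and 1361 bp at D10, against 48569, 44288 and 39885 bp at D2. D10 A held the most of it by far among the D10 libraries, and KO1 and KO2 held 58384 and 32212 bp at D10.

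A run of 7 falls at chr6:52100001-52170000 had 6269, 4481 and 3095 bp at D10, against 23376, 23058 and 20958 bp at D2. The run at chr13:53270001-53340000 (7 windows), which contains the first-ranked fall, had 4434, 2369 and 2898 bp at D10, against 36020, 33564 and 26613 bp at D2. Its 70 kb held less than 5000 bp of peaks in each D10 library, and the fourth longest lost region, chr13:53330690-53333699, lies inside it.

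Over bins of 1 Mb, 318 (25.4%) of 1252 bins were higher and 361 (28.8%) lower at D10 (limma on log2(covered bp + 1000), adjusted p under 0.05), 54.2% in all. Windows of 10 kb called in both directions were held by 188 of the 318 bins that rose (59.1%), 197 of the 361 bins that fell (54.6%) and 374 of the 573 bins not called (65.3%). In bins that rose, 37.2% of the windows tested were called higher and 12.9% lower. In bins that fell, 9.14% were called higher and 40.3% lower. In bins not called, the shares were 18.8% higher and 24.8% lower. Bins and windows were built from the same covered bp, so a likeness between their calls is built in.

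The largest rise of a bin was at chr4:146000001-147000000, with 15998, 15625 and 11081 bp under all D10 peaks, against 2135, 2721 and 1236 bp at D2 (log2 change 3.40, SE 0.32, limma adjusted p = 5.33e-07). The mESC lists held 6072, 8325 and 15975 bp there at 0, 12 and 72 hours, and KO1 and KO2 held 4427 and 235 bp at D10. This bin and the one at chr17:68000001-69000000, with 11273, 11556 and 7759 bp at D10 against 6938, 4772 and 3441 bp at D2 (1.91), did not overlap between days under all deposited peaks either. Without scaling the log2 change of the chromosome 17 bin was 0.91 (limma adjusted p = 0.0495). Of all bins tested, 0.24% lay above in all D10 libraries on that scale and 80.8% lay below. The rises at chr17:78000001-79000000 (2.21), chr4:153000001-154000000 (2.09) and chr9:47000001-48000000 (1.98) were not called without scaling (limma adjusted p = 0.596, 0.0631 and 0.260).

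The largest fall of a bin was at chr17:37000001-38000000, with 1631, 2182 and 501 bp at D10, against 20772, 21089 and 16077 bp at D2 (-2.55, SE 0.23, limma adjusted p = 5.06e-07). It was followed by chr2:74000001-75000000, with 6412, 7391 and 3630 bp at D10, against 52647, 50328 and 37869 bp at D2 (-1.97). At chr2:115000001-116000000 there were 15958, 14027 and 6279 bp at D10, against 62705, 74530 and 56954 bp at D2 (-1.62).

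Shifts between whole chromosomes were small. The share of a library's covered sequence was higher at D10 on 8 of 19 chromosomes (42.1%) and lower on 4 (21.1%) at a limma adjusted p under 0.05, 63.2% in all. The largest rise was on chromosome 16, with 3.57%, 3.55% and 3.28% of a D10 library, against 2.99%, 3.06% and 3.01% of a D2 library (log2 change 0.20, limma adjusted p = 0.000297). The largest fall was on chromosome 2, with 7.30%, 7.31% and 7.21% at D10, against 8.43%, 8.57% and 8.11% at D2 (-0.20, limma adjusted p = 0.000209).

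Chromosomes 10 (0.14), 12 (0.16), 15 (0.13) and 8 (0.12) were also higher at D10 and chromosome 11 (-0.17) lower, on the same log2 scale. The calls on chromosomes 3, 4, 7, 14 and 18 were lost under some of the alternatives, and without WT D10 A, WT D10 B or WT D2 C the number of lower chromosomes was 2 in each case. The loss itself was even across chromosomes: of the regions that all 3 D2 lists held, between 52.2% (chromosome 8) and 58.6% (chromosome 1) were lost on every chromosome. Lost regions outnumbered gained ones most on chromosome 2, with 5.37 lost per gained region, and least on chromosome 10, with 3.45.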

How the data were processed

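According to the protocols in the labels, sonicated fragments of 200 to 500 bp were captured and amplified over 14 cycles. Bowtie, SAMtools, MACS2 and the mm9 build come from the submitters' processing notes, with versions not given in the sources used here. Each deposited list belongs to 1 library and gives for each peak the authors' score, fold enrichment (a linear ratio), -log10 p, -log10 q and, as the other column of the MACS2 layout, the summit offset. Run names carry a p threshold of 0.0001, in 3 styles, one per replicate letter, that may mark batches. The deposited values only ordered or filtered the peaks of a list and gave relative depth, for which 100% of the fold values used were whole reads within 0.05.

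Peaks on chromosomes 1 to 19 were compared, and an overlap of 1 bp counted as shared. Library values were tested by two-sided exact permutation (20 assignments). Windows of 10 kb (mean covered bp of 500 or more over the 6 D10 and D2 libraries) and bins of 1 Mb (5000 or more) were fitted over the 9 WT libraries, D0 included, each scaled to the mean total, with limma 3.58.1 (lmFit, eBayes with trend and robust) in R 4.3.3 and Benjamini-Hochberg adjustment over all windows or bins. Chromosome shares were fitted the same way but with plain eBayes. The code was tested on simulated data. Python 3.11.15, NumPy 2.4.6, pandas 2.3.3 and SciPy 1.17.1 did the rest.

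The comparison and the rule for named items were chosen with earlier results of these data known. The rule takes 10 windows per direction, ranked by log2 change among those past the threshold whose days do not overlap under the strongest and under all peaks, 5 bins and 5 longest runs per direction, the 5 longest regions of each class and all chromosomes past the threshold. Some of these are given only in the counts or plots. A test of genes needed an mm9 annotation and was not run, so no gene and no sequence is given. Alternatives were other list lengths, q minimums, scalings, filters, pseudocounts, window sizes, replicates left out and the letter as a block. Leaving out both C libraries, or WT D0 C, was chosen after seeing the data.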

Additional observations from a re-analysis of the deposited data

How the results depend on the processing

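Peak number, covered bp, median width, share of wide peaks, overlap between and within days and summit distance kept their direction under every alternative run, always with the smallest p the design allowed or, without WT D10 C, 0.2 for peak number. Leaving out 1 replicate at a time gave log2 differences of -1.02 to -0.68 for peak number and -1.28 to -0.86 for covered bp, -138 to -103 bp for width, -6.63 to -5.03 points for wide peaks, -33.2 to -23.4 points for overlap and 8.17 to 15.8 bp for summits. It gave 10300 to 18886 gained, 43906 to 61830 lost and 11678 to 18262 kept regions. Windows higher numbered 1983 to 3429 and windows lower 2555 to 4783, bins higher 267 to 290 and bins lower 282 to 330. Chromosomes higher numbered 6 to 8 and chromosomes lower 2 to 4. Without WT D0 C, which is outside the comparison, 3505 windows were higher and 4765 lower, and 370 bins higher and 432 lower. Among called windows, the share of rises was 42.1%, but 55.4 to 56.1% without a D2 library and 30.8 to 32.7% without a D10 library. Lists of equal length gave 15592 lost and 4868 kept regions and moved the share of D2 peaks found in a D10 list to 24.3% and of D10 peaks found in a D2 list to 25.0%. A -log10 q of at least 5 gave 5902 gained and 6967 kept regions, and peaks that cover at least 50% of a region 3776 kept regions. Without both C libraries, 19503 regions were gained, 63993 lost and 22030 kept, and 229 bins were lower. Windows higher and lower numbered 8467 and 8859 with no filter on low values, 124 and 133 with the minimum raised to 2000 bp, 1377 and 13226 under all deposited peaks without scaling, and 5638 and 5537 under all deposited peaks with scaling (50.5% rises). Relative to the median window they numbered 3733 and 3414 (52.2% rises). Bins higher numbered 636 with no filter (58.5% of the called), 105 with the minimum raised, beside 144 lower, and 4 without scaling, beside 955 lower. The cause of these moves was not tested, except that fewer or more windows and bins entered the tests as the filter changed. Deviations of same-letter libraries from their day means correlated by -0.0083, 0.020 and 0.018 over windows. These were scaled lists of equal length, so they could not show a pairing by letter in depth or list length. With the letter as a block, 3002 windows were higher and 4167 lower, 310 bins higher and 363 lower and 8 chromosomes higher and 4 lower. Exact sign flips within letters gave p = 0.25, the smallest 3 pairs allow. All 347 values of the named windows kept direction and side of the threshold, 3 of the bin values and 20 of the chromosome values lost the call, and no value reversed. The named windows and bins were chosen as the largest changes past the threshold, so this is a weak check of them. Items not tested under an alternative, as with the minimum raised, gave no value. Relative depth was lowest in D10 C (1.03) among the 6 libraries, and none was recovered for the mESC lists.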

Other observations

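Chromosome X was outside the comparison. The D10 libraries A, B and C held 362, 276 and 133 peaks there, against 569, 441 and 303 in the D2 libraries. As a share of a list this was 0.339 ± 0.0900% at D10 and 0.324 ± 0.0349% at D2 (SD, n = 3 each), so the days overlapped.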
